A study of Homo sapiens with 36 samples.

Results

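The 6 libraries described here came from MINO, an established human mantle cell lymphoma cell line, 72 hours after treatment, and were chosen by their labels from the 36 libraries of the series. Of these 6 libraries, 3 are labelled DMSO, a vehicle, and 3 are labelled GS716054, named in the series as a KDM5 inhibitor. The series also holds MINO at 24 h and the mantle cell lymphoma lines JEKO and UPN-1 at both times, in the same treatments with 3 biological replicates each. The protocol is the same for all samples, culture in RPMI-1640 with fetal bovine serum, L-glutamine and antibiotic, and the dose of GS716054 is not given in the sources used here. The labels call the replicates biological without saying whether they were separate cultures, so p-values measure only the spread between these libraries of 1 cell line.

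KDM5 enzymes (KDM5A, KDM5B, KDM5C and KDM5D) remove methyl groups from lysine 4 of histone H3, a mark found at active promoters. Mantle cell lymphoma is a malignancy of mature B cells that usually carries a translocation driving cyclin D1. Its cells keep a B-cell receptor, NF-kappaB signalling and lymphoid homing receptors, and depend on amino acid supply and on MYC, a transcription factor that raises biosynthesis.

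Levels are given as CPM (reads of a gene relative to the total of its library, after TMM scaling), in the order of replicates 1, 2 and 3, and a level compares samples of 1 gene, not genes with each other. Fold changes are log2 values of GS716054 over DMSO with their standard error (SE) from edgeR's quasi-likelihood test, which keeps the replicate number as a block. A gene was called when its Benjamini-Hochberg adjusted p over all 15028 genes tested was under 0.05. Unless stated, the words rose and fell compare GS716054 with DMSO at the same time, and do not describe a change over time. Gene reads per library ranged from 8784815 to 14970876, so that 3 reads correspond to 0.2 to 0.341 CPM. In bulk RNA, fewer cells of a type and less RNA per cell cannot be told apart.

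Replicate 2 stood apart from replicates 1 and 3 in both treatments. The first principal component of the 6 libraries (48% of the variance) placed the libraries numbered 2 at 31.6 (DMSO) and 52.6 (GS716054) and the other 4 between -32.6 and -7.7, and the second (32.8%) separated the treatments. The median of 34 glycolysis and hypoxia genes was higher in replicate 2 than in the mean of the other 2 libraries by a log2 value of 1.61 in DMSO and 1.58 in GS716054. Genes of DNA replication had medians of -0.75 and -1.35 and genes of mitosis -0.19 and -1.04 on the same scale, so both lists were lower in replicate 2. Counts over the pathway lists are also given without both 72 h libraries numbered 2, an alternative chosen after seeing the data, and without the replicate block, where these move them by over 1.5 times. Of all genes, 23.7% were called in the first of these fits (12.1% higher and 11.6% lower). In the second, 5.56% were called (3.51% higher and 2.05% lower). List counts from these fits are to be read beside these shares.

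**Figure D1:**
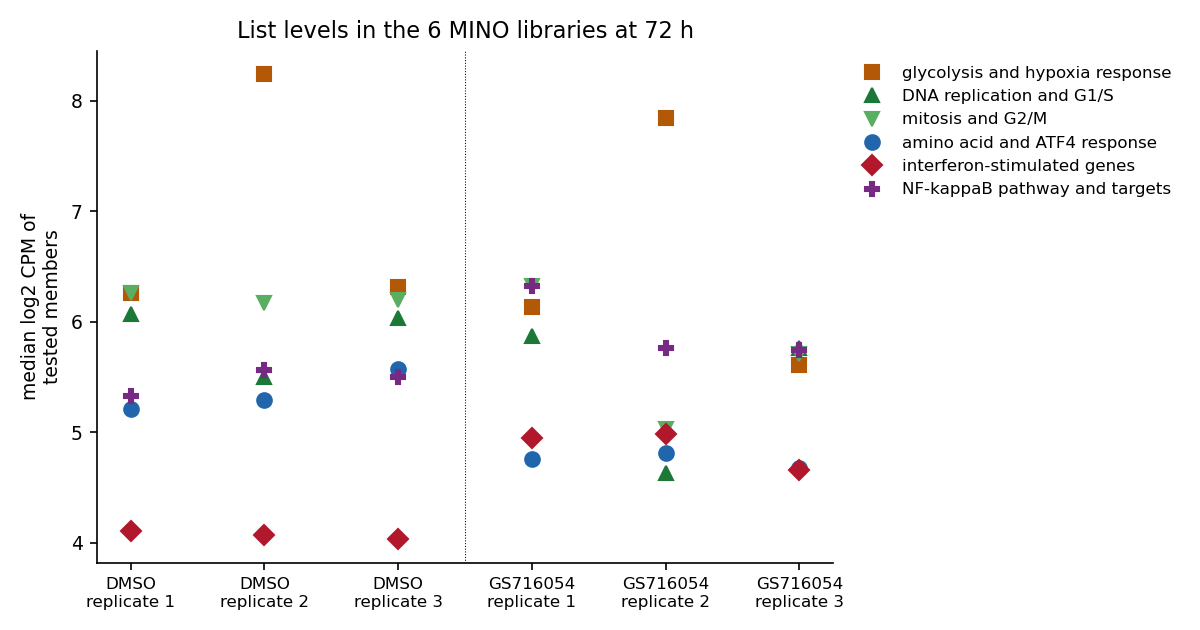
Median log2 CPM of the tested members of 6 gene lists (symbols, see legend) in each of the 6 MINO libraries at 72 h. Glycolysis and hypoxia genes lie highest in replicate 2 of both treatments, while the interferon-stimulated genes are lower in all 3 DMSO libraries than in all 3 GS716054 libraries.

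The libraries carried the marks of the labelled cell type. Marker sums are given over all listed markers, as CPM of the library's gene reads without TMM scaling. All 10 B-cell markers passed the filter on low counts, with summed levels of 3276 to 3463 CPM in DMSO and 4974 to 5760 CPM in GS716054. CCND1 read 1795, 2576 and 1879 CPM in DMSO and 1966, 2805 and 2456 CPM in GS716054, and SOX11 and CD5 were also expressed. These 3 of the 5 mantle cell lymphoma markers were not called at 72 h, and CCND3 was. Of 14 T and NK cell markers, 6 passed the filter and 4 were called higher (TRAC, TRBC2, CD8A and PRF1), with summed levels of 261 to 284 CPM in DMSO and 423 to 548 CPM in GS716054. CD3D, CD3G, CD2, KLRD1, GZMB and NCAM1 had no read in any of the 6 libraries. Of 10 myeloid markers, 3 passed and none was called by edgeR (2 at an unadjusted p under 0.05, and 1 by DESeq2), with sums of 1.84 to 3.8 and 3.75 to 6.37 CPM. Of 12 fibroblast, endothelial and epithelial markers, 3 passed and 2 (COL1A1 and PECAM1) were called higher, with sums of 12.4 to 14.7 and 27.5 to 35.4 CPM. None of 7 erythroid and platelet markers passed the filter. The part of other cell types in the results was not tested.

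At 72 h, 1536 of 15028 genes were called (10.2%), of which 896 were higher (5.96%) and 640 lower (4.26%) in GS716054. The change was at least 2-fold for 383 of the higher and 170 of the lower genes, and the median absolute log2 change of called genes was 0.812. The median of the signed log2 change over all genes tested, a different measure, was -0.03. The 3 libraries of each treatment did not overlap for 3383 genes (22.5%), and 1320 of these were called. Protein-coding genes made up 756 of the higher and 554 of the lower calls, and long non-coding RNAs 103 and 61. Changes were ranked among called protein-coding genes with a mean log2 CPM over 2 and no overlap between treatments. In that ranking CCL22, SCIMP and LTB had the largest increases and ASS1, SLC2A5 and SLC6A9 the largest decreases. The plot of log2 change against mean level shows them.

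Without the replicate block 835 genes were called (5.56%), 527 higher (3.51%) and 308 lower (2.05%), all in the same direction as with it. With the block nested in time 3029 were called (20.2%), 1556 higher (10.4%) and 1473 lower (9.8%), and they included all 1536 in the same direction. Without both libraries numbered 2, 3607 were called (23.7%), 1846 higher (12.1%) and 1761 lower (11.6%), and 1469 of the 1536 were among them in the same direction. DESeq2 called 1936 genes (12.9%), 1034 higher (6.88%) and 902 lower (6%). When a single library was left out, the counts ranged from 693 (DMSO replicate 3) to 1876 (DMSO replicate 2), and were 697 for DMSO replicate 1, 708 for GS716054 replicate 3, 1011 for its replicate 1 and 1147 for its replicate 2. A total of 454 genes were called in all 6 of these fits, and called genes given below with values are of this kind unless a lost call is stated.

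**Figure D2:**
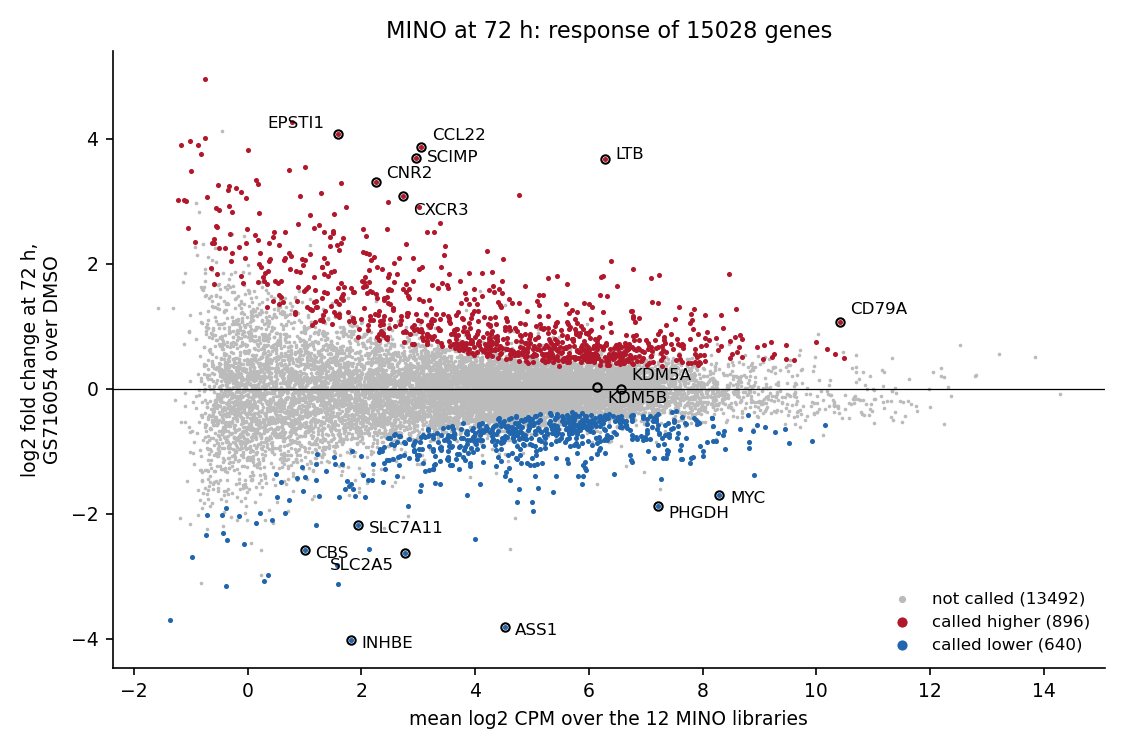
Log2 fold change at 72 h against the mean log2 CPM over the 12 MINO libraries, with 1 point per gene tested and 896 genes called higher (red), 640 called lower (blue) and the rest grey. LTB and CCL22 lie far above 0, ASS1 and INHBE at about -4, and KDM5A and KDM5B at 0.

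The genes of the targeted family were not called. KDM5A (a demethylase found in most cells) read 87.6, 116 and 88 CPM in DMSO and 88, 122 and 83.3 CPM in GS716054. KDM5B read 60.4, 247 and 62.3 CPM in DMSO and 60.4, 233 and 72.6 CPM in GS716054, so replicate 2 was high in both treatments and the treatments overlapped. KDM5C had a log2 change of -0.10 (SE 0.12, adjusted p = 0.631). KDM5D had a log2 change of -0.55 (SE 0.23, adjusted p = 0.153), with overlapping treatments. It was called lower in 1 of the 6 fits leaving out a library. At an unadjusted p under 0.05 KDM5D was the 1 lower member of the family, and DESeq2 called none. None of 17 listed genes, most of them of H3K4 methyltransferase complexes, was called by edgeR (3 lower at an unadjusted p under 0.05, and 2 lower by DESeq2). None of 20 histone lysine demethylases and related JmjC genes outside the KDM5 family was called either (2 higher and 2 lower at an unadjusted p under 0.05, and 2 lower by DESeq2). KDM1A, KDM1B and KDM6A, which are demethylases, are in both lists. In the first list 1 gene was called higher and 7 lower without both libraries numbered 2, and in the second 1 higher and 4 lower. In that fit 23.7% of all genes were called. Levels of these RNAs do not measure the activity of the enzymes.

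MYC fell. It read 583, 735 and 636 CPM in DMSO and 176, 217 and 211 CPM in GS716054, without overlap (log2 change -1.69, SE 0.13, adjusted p = 2.41e-05). At 24 h the means were 469 and 160 CPM (log2 change -1.55, adjusted p = 0.000222). Among 13 genes of the MYC network only MYC fell and only MXD4 rose, with 3 lower and 1 higher without both libraries numbered 2. MXD4, which encodes a MAX partner that opposes MYC, read 43.9, 40.1 and 50.1 CPM in DMSO and 97.2, 135 and 118 CPM in GS716054 (log2 change 1.36, SE 0.14, adjusted p = 0.000163). MYC is among the genes whose response differed between lines, given with those comparisons below.

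Genes of nucleotide and folate synthesis and of ribosome biogenesis fell in part. Of 26 nucleotide and folate genes, 10 fell and none rose (median log2 change -0.46; 16 and 0 at an unadjusted p under 0.05, and 12 and 0 by DESeq2), with 3 lower without DMSO replicate 1, 3 without the block, and 14 lower and 1 higher without both libraries numbered 2. MTHFD2, a mitochondrial folate enzyme, read 316, 269 and 311 CPM in DMSO and 163, 101 and 154 CPM in GS716054 (log2 change -1.12, SE 0.14, adjusted p = 0.00055). MTHFD1L, which follows it in the same pathway, read 92.7, 59.6 and 105 CPM in DMSO and 44.8, 14.2 and 44.2 CPM in GS716054 (log2 change -1.39, SE 0.22, adjusted p = 0.00269). In both genes each GS716054 library was below each DMSO library, with replicate 2 the lowest of its group. The other members called lower were CAD, PPAT, PFAS, PAICS, PRPS2, MTHFD1, SHMT2 and ODC1. Of 32 ribosome biogenesis genes, 4 fell and none rose at 72 h (12.5%, beside 10.2% of all genes). Their median was -0.32, with 14 lower and 0 higher at an unadjusted p under 0.05, and 8 and 0 by DESeq2. At 24 h 16 fell (median -0.60). None of the 32 had a positive log2 change at 72 h. The lower calls numbered 16 without both libraries numbered 2, 14 with the nested block and 1 without the block. Of all genes, 11.6%, 9.8% and 2.05% were called lower in these fits. FBL, the methyltransferase of ribosomal RNA processing, read 224, 313 and 241 CPM in DMSO and 141, 143 and 165 CPM in GS716054 (log2 change -0.79, SE 0.15, adjusted p = 0.00605). The other 3, NPM1, POLR1B and NAT10, were each called in 1 of the 6 fits that leave out a library. None of 38 ribosomal protein genes was called by edgeR (4 lower at an unadjusted p under 0.05, and 2 lower by DESeq2).

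Genes of the amino acid response were lower as a group in GS716054 than in DMSO at 72 h. ATF4 is the transcription factor that cells translate when amino acids run short or proteins misfold, and it switches on genes of amino acid synthesis, uptake and tRNA charging. Of 26 listed genes of this response 21 were tested, 14 fell and none rose, with a median log2 change of -1.27 (17 lower and 0 higher at an unadjusted p under 0.05, and 15 and 0 by DESeq2). Of these 14, 10 were called whichever library was left out: ATF4, ATF3, ATF5, CHAC1, SESN2, INHBE, PHGDH, PYCR1, CBS and GPT2. At 24 h 6 members fell and 1 rose, with a median of -0.41.

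INHBE, a secreted TGF-beta family subunit, showed the largest decrease in the list. It read 17.1, 20.9 and 18.1 CPM in DMSO and 1.98, 1.15 and 0.516 CPM in GS716054 (log2 change -4.01, SE 0.31, adjusted p = 2.41e-05). PHGDH, the first enzyme of serine synthesis, read 360, 249 and 402 CPM in DMSO and 112, 63.6 and 103 CPM in GS716054 (log2 change -1.87, SE 0.15, adjusted p = 3.41e-05). ATF3, a stress-induced transcription factor, read 5.67, 5.38 and 5.33 CPM in DMSO and 1.54, 1.24 and 0.861 CPM in GS716054 (log2 change -2.18, SE 0.37, adjusted p = 0.00354). The treatments did not overlap for any of the 3 genes. CBS, which makes cystathionine from homocysteine, had a log2 change of -2.58 (SE 0.41, adjusted p = 0.00271), and its reads may be split with a near-identical copy in the annotation. Mean DMSO levels of INHBE, PHGDH, ATF3 and CBS were 2.71, 177, 3.04 and 1.6 CPM at 24 h. At 72 h they were higher, at 18.7, 337, 5.46 and 7.3 CPM. Mean GS716054 levels were 2.11, 95.3, 1.03 and 0.987 CPM at 24 h and 1.22, 92.9, 1.21 and 1.2 CPM at 72 h. The change over time within a treatment was not tested.

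Amino acid transporters and tRNA ligases fell with them. Of 15 transporters tested 8 fell and 1 rose (median -0.49), and of 20 cytosolic tRNA ligases 10 fell and none rose (median -0.52; 14 and 0 at an unadjusted p under 0.05, and 12 and 0 by DESeq2). SLC6A9, a glycine transporter, read 21.5, 18.1 and 21.7 CPM in DMSO and 4.28, 2.88 and 3.27 CPM in GS716054 (log2 change -2.57, SE 0.28, adjusted p = 0.000228). SLC7A11, the cystine transporter, read 13.5, 7.92 and 16.7 CPM in DMSO and 4.72, 2.47 and 1.38 CPM in GS716054 (log2 change -2.18, SE 0.36, adjusted p = 0.00297). SLC43A1, a carrier of large neutral amino acids, and SLC7A1, a carrier of arginine and lysine, had log2 changes of -1.70 and -1.04 (SE 0.20 and 0.14). The transporter that rose was SLC43A2, a relative of SLC43A1 (log2 change 0.87). WARS1, the tryptophan ligase, had the largest decrease of its list, with 303, 218 and 310 CPM in DMSO and 112, 71.9 and 124 CPM in GS716054 (log2 change -1.44, SE 0.18, adjusted p = 0.000492). IARS1, YARS1, GARS1, AARS1 and SARS1 also fell in every fit that left out 1 library, GARS1 by 0.98 and SARS1 by 0.65. The lowest number of lowered ligases in these fits was 7. Mean DMSO levels at 24 h and 72 h were 3.59 and 20.4 CPM for SLC6A9 and 3.25 and 12.7 CPM for SLC7A11. They were 147 and 277 CPM for WARS1 and 181 and 182 CPM for IARS1. Mean GS716054 levels of these genes, in the same order, were 1.22 and 3.48, 1.8 and 2.9, 142 and 103, and 103 and 90.7 CPM.

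ATF4 is known to bind a composite C/EBP-ATF element, searched here as TGATGNAA on both strands in RefSeq promoters (GRCh38.p14, 250 bases before to 50 after each start). It was found in 2 of 10 lowered genes of the amino acid response list that had a promoter in the table, in 4 of 7 lowered transporters and in 5 of 8 lowered tRNA ligases, beside 1217 of all 27305 genes in the table (4.46%). It was also found in members that were not called, with 2 of 7, 1 of 6 and 2 of 8 in the same lists. The 4 windows of 60 bases shown belong to genes that fell in every fit leaving out 1 library and that carry the element before the start site, and the capitals mark it in either orientation.
ATF3 (chr1:212565191-212565250, + strand): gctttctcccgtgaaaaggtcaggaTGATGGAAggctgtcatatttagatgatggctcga
CHAC1 (chr15:40953237-40953296, + strand): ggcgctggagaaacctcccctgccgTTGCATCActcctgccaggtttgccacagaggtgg
SLC1A5 (chr19:46784877-46784936, - strand): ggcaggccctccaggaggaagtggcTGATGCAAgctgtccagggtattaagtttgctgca
AARS1 (chr16:70289659-70289718, - strand): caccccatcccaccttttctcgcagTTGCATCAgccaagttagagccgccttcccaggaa
The element starts 191, 209, 97 and 187 bases before the start site in these 4 genes. CHAC1, an enzyme that degrades glutathione, read 14.4, 12.1 and 12.7 CPM in DMSO and 7.02, 2.96 and 2.58 CPM in GS716054, and the glutamine carrier SLC1A5 and the alanine ligase AARS1 had log2 changes of -0.79 and -0.84. A match is a description of the letters in the window and was not tested as a binding site.

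ASS1, the enzyme that makes argininosuccinate on the way to arginine, had the largest decrease in the ranking of called protein-coding genes without overlap (mean log2 CPM over 2). The gene lies at chr9:130444961-130501274 (GRCh38, + strand). It read 162, 190 and 186 CPM in DMSO and 9.77, 19.3 and 10.4 CPM in GS716054 (log2 change -3.80, SE 0.21, adjusted p = 1.73e-06). Among 18 arginine and polyamine genes, 3 fell and 1 rose, with 4 and 3 without both libraries numbered 2 and 1 and 0 without the block. GATM and ODC1 were the other lowered members, and neither call held in every fit (adjusted p = 0.219 and 0.164 without the block, and up to 0.0743 and 0.0897 with 1 library left out). NOS3, the arginine-consuming nitric oxide synthase, rose (9.54, 18.6 and 9.5 against 20, 33.8 and 18.8 CPM, log2 change 0.96, SE 0.18, adjusted p = 0.00724), and lost its call without the block (adjusted p = 0.0647).

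**Figure D3:**
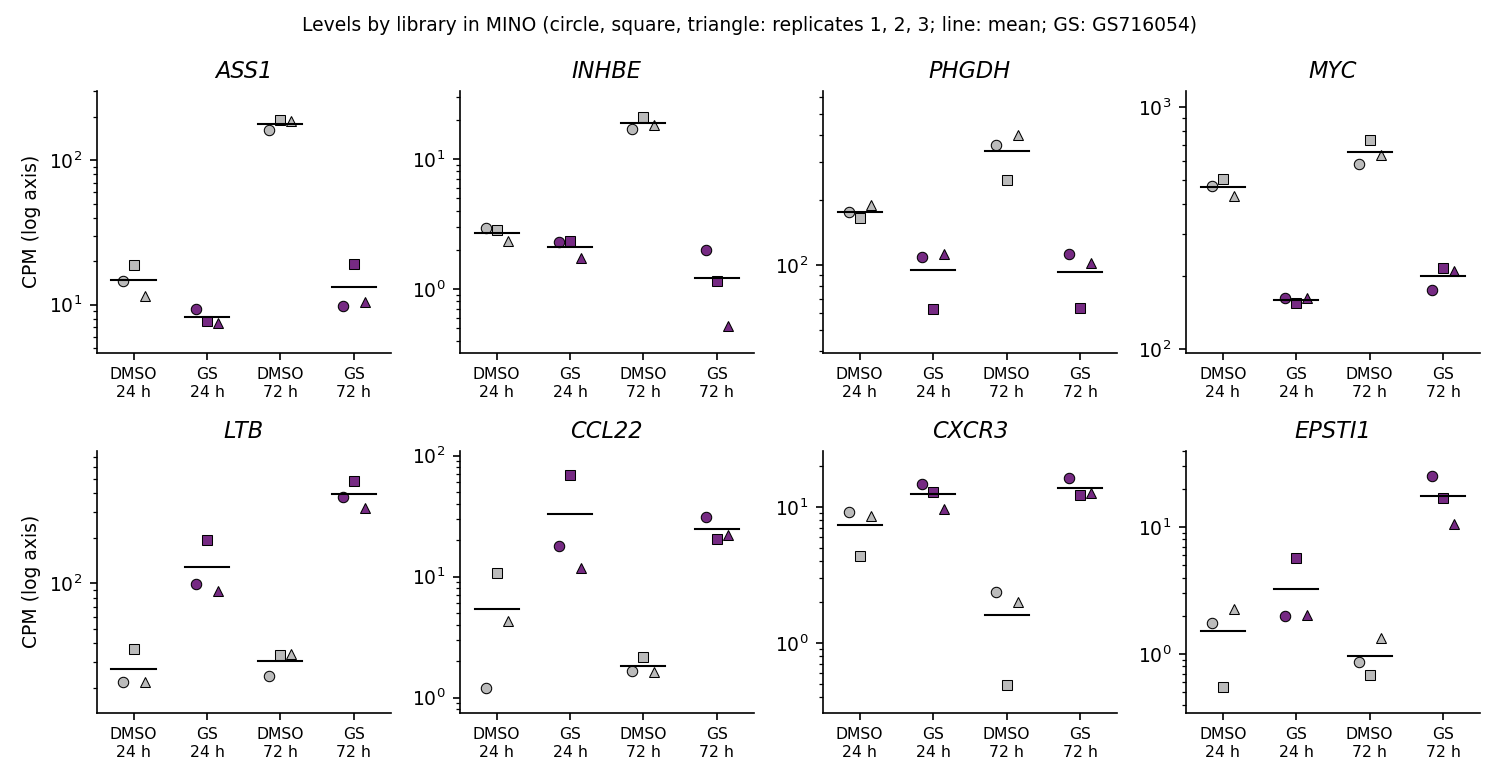
CPM on a log axis of 8 genes in each of the 12 MINO libraries, grouped by treatment and time, with a symbol per replicate and a line at the mean. ASS1 and INHBE are high in the 72 h DMSO libraries alone, MYC is lower in GS716054 at both times, and LTB, CCL22 and EPSTI1 are higher in GS716054 at 72 h in every replicate.

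Interferon-stimulated genes rose together. These genes are switched on after interferon and include antiviral effectors and sensors. Of 44 listed genes 32 were tested, 18 rose and none fell, with a median log2 change of 0.80, and 28 of the 32 had a positive value. By DESeq2 19 rose and none fell, and at an unadjusted p under 0.05 the numbers were 25 and 0. The lowest count with 1 library left out was 9, without DMSO replicate 1, and 23 rose without both libraries numbered 2. Without the replicate block the number was 11. At 24 h 5 members rose (median 0.41).

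EPSTI1 showed the largest increase in the list. It read 0.861, 0.685 and 1.33 CPM in DMSO and 25, 16.9 and 10.5 CPM in GS716054 (log2 change 4.08, SE 0.55, adjusted p = 0.00083). IFIT2, which inhibits viral translation, read 0.861, 1.37 and 1.51 CPM in DMSO and 4.5, 13.1 and 4.48 CPM in GS716054 (log2 change 2.43, SE 0.44, adjusted p = 0.00554), with replicate 2 the highest. LGALS3BP, a secreted galectin-binding glycoprotein, read 8.76, 10.9 and 8.23 CPM in DMSO and 32, 39.7 and 28.1 CPM in GS716054 (log2 change 1.85, SE 0.21, adjusted p = 0.000317). No GS716054 library overlapped a DMSO library for these 3 genes. ISG15, ISG20 and TRIM22 were also called in each fit that left out 1 library. XAF1 rose by 1.95, but 38.3% of its exon bases overlap a gene on the opposite strand, and its call was lost in 4 of the 6 fits (adjusted p up to 0.161) and without the block (0.0649).

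The interferon-stimulated response element was searched on both strands as GAAA, any 2 bases, GAAA. It was present in 9 of 13 promoters of interferon-stimulated genes that rose and in 9 of 11 of those not called, beside 1195 of 27305 genes (4.38%). Promoters of 4 genes that rose in every fit leaving out 1 library are shown, with each match in capitals.
EPSTI1 (chr13:42992257-42992316, - strand): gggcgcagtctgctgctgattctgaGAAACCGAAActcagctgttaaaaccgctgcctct
LGALS3BP (chr17:78979947-78980006, - strand): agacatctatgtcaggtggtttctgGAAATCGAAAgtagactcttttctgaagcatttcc
ISG15 (chr1:1013359-1013418, + strand): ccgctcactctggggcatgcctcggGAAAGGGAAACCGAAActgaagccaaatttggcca
ISG20 (chr15:88638922-88638981, + strand): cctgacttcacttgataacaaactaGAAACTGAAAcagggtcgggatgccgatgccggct
In ISG15 the capitals cover 2 overlapping matches. ISG15, a ubiquitin-like modifier, read 16.1, 19.3 and 18.3 CPM in DMSO and 37.5, 30.5 and 34.7 CPM in GS716054, and ISG20, an exonuclease, 22.2, 36.8 and 22.7 against 68.3, 75.7 and 66.9 CPM.

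Of 29 genes of MHC class I and II presentation, 3 rose (TAPBP, HLA-DMB and HLA-DOB) and 1 fell (CIITA, the class II transactivator), 13.8% beside 10.2% of all genes, and 25 had a positive log2 change. HLA-DMB, part of the peptide loader of class II, read 64.2, 55.8 and 55.2 CPM in DMSO and 92.7, 72 and 124 CPM in GS716054 (log2 change 0.70, SE 0.17, adjusted p = 0.021). None of the 4 calls held in all fits that leave out 1 library (adjusted p up to 0.138 for HLA-DMB, 0.124 for HLA-DOB, 0.112 for TAPBP and 0.0985 for CIITA). Without both libraries numbered 2, 17 rose and 2 fell, when 23.7% of all genes were called, and without the block 2 rose and 1 fell. Reads of HLA genes can be split between near-identical members.

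NF-kappaB targets and lymphotoxins rose. NF-kappaB factors act downstream of the B-cell receptor, CD40 and TNF family receptors, and switch on cytokines and survival genes. Of 30 genes 11 rose and none fell at 72 h (median 0.36), and 14 rose at 24 h (median 0.76). At an unadjusted p under 0.05, 14 were higher and 2 lower, and DESeq2 called 11 higher and 0 lower. The lowest count was 6, without GS716054 replicate 1, and also 6 without the block, and without both libraries numbered 2 there were 16 higher and 1 lower.

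LTB, the membrane subunit of lymphotoxin, had the largest increase among called protein-coding genes without overlap and with a mean log2 CPM over 4. The gene lies at chr6:31580525-31582522 (GRCh38, - strand). It read 24, 33.2 and 33.9 CPM in DMSO and 381, 483 and 319 CPM in GS716054 (log2 change 3.67, SE 0.20, adjusted p = 1.73e-06). CCL22, a chemokine that draws regulatory T cells, read 1.65, 2.15 and 1.63 CPM in DMSO and 30.8, 20.5 and 22.2 CPM in GS716054 (log2 change 3.87, SE 0.57, adjusted p = 0.00169). TNF read 13.6, 9.1 and 11.9 CPM in DMSO and 53.1, 33.5 and 21 CPM in GS716054 (log2 change 1.60, SE 0.30, adjusted p = 0.0062). None of these 3 genes had overlapping treatments. EBI3, a subunit of interleukins 27 and 35, had a log2 change of 1.69 and lost its call without GS716054 replicate 3 (adjusted p = 0.0633).

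The NF-kappaB element, searched on both strands as GGG, any 2 bases, TTTCC, was present in 3 of 9 promoters of the genes of this list that rose, in 8 of 16 of those not called and in 635 of 27305 genes (2.33%). LTB carries it 86 bases before the start used in its RefSeq promoter, and the window is shown because of the LTB change given above. That RefSeq start lies inside the gene interval given above, which is from GENCODE. The interval also covers the element and most of the window, so the element is not before the start of that interval.
LTB (chr6:31582477-31582536, - strand): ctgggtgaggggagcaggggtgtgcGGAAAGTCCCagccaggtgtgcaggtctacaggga

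Of 26 TNF superfamily ligands and receptors, 7 rose and 1 fell (11 and 3 without both libraries numbered 2, and 5 and 0 without the block). Besides LTB and TNF, the ligand LTA (6.82, 20.1 and 7.44 against 20.4, 33.2 and 17.1 CPM, log2 change 1.14, SE 0.22, adjusted p = 0.00687) and the receptor CD27 (21.7, 93.4 and 21.5 against 83.7, 226 and 89.9 CPM, log2 change 1.68, SE 0.31, adjusted p = 0.00558) rose. In both, replicate 2 was high in each treatment, the treatments overlapped across replicates, and the call was lost without the block (adjusted p = 0.13 and 0.0958). Of the exon bases of CD27, 42.5% overlap a gene on the opposite strand. CD40 and TNFRSF13C, the receptor for BAFF, rose by 0.84 and 0.71, and TNFRSF17, the plasma cell receptor BCMA, fell by 1.06, a call lost without GS716054 replicate 1 or 2 (adjusted p up to 0.09) and without the block (adjusted p = 0.0596).

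Of 23 chemokines and homing receptors, 11 rose and none fell (median 0.52), with 12 higher and 1 lower at an unadjusted p under 0.05 and 11 and 1 by DESeq2. The numbers were 15 and 2 without both libraries numbered 2, and 7 and 0 without the block. CXCR3, the receptor for interferon-induced chemokines, read 2.37, 0.489 and 2 CPM in DMSO and 16.4, 12.3 and 12.7 CPM in GS716054 (log2 change 3.08, SE 0.34, adjusted p = 0.000231). CNR2, a cannabinoid receptor that guides B cells, read 1.79, 1.76 and 2.36 CPM in DMSO and 19.4, 23.8 and 17.3 CPM in GS716054 (log2 change 3.30, SE 0.25, adjusted p = 2.41e-05). The groups were separate in both. CXCR5 and CCR7, which place B cells in follicles and T zones, the integrin ITGB7 and the cannabinoid receptor CNR1 rose by 1.16, 1.10, 1.03 and 0.85. Of the exon bases of CXCR5 and ITGB7, 91.1% and 42.3% overlap a gene on the opposite strand, and the strand setting of the counting is not given in the sources used here. CCR10 rose by 1.29, with 34.4% of its exon bases opposite another gene, and lost its call without GS716054 replicate 3 (adjusted p = 0.0547).

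B-cell membrane genes rose more often than they fell. Of 32 genes of B-cell receptor signalling, 6 rose and 1 fell, and of 11 Fc receptor and Fc receptor-like genes 5 rose and none fell (median 0.90; 7 and 0 at an unadjusted p under 0.05, and 6 and 0 by DESeq2). Without both libraries numbered 2, 13 rose and 3 fell in the first list and 8 and 0 in the second, and without the block 3 and 1 in the first and 4 and 0 in the second. In the first list 2 of the 6 higher calls held in all 6 fits leaving out a library. The lowest count of higher calls was 2, without DMSO replicate 1 or without GS716054 replicate 3. BCL10 rose by 0.72 and was called in 3 of these 6 fits (adjusted p up to 0.0666). CD79A, the signalling chain of the receptor, read 813, 1268 and 858 CPM in DMSO and 1684, 2380 and 2094 CPM in GS716054 (log2 change 1.07, SE 0.19, adjusted p = 0.00521). CD22, an inhibitory coreceptor, read 38.9, 52.5 and 41.2 CPM in DMSO and 56.2, 96.8 and 60.7 CPM in GS716054 (log2 change 0.67, SE 0.12, adjusted p = 0.00624), a call lost without the block (adjusted p = 0.0687). NFATC1, a calcium-regulated transcription factor, was the member that fell (341, 490 and 365 against 225, 278 and 240 CPM, log2 change -0.68, SE 0.14, adjusted p = 0.011). FCRL3, singled out after its values were seen because its mean level lies under the limit set for named genes, read 0.359, 1.08 and 0.363 CPM in DMSO and 8.34, 20.6 and 6.37 CPM in GS716054 (log2 change 4.26, SE 0.48, adjusted p = 0.000281). FCRL2 rose by 1.87 and lost its call without GS716054 replicate 3 (adjusted p = 0.0764). FCER2, FCGR2B and FCMR were called in 3, 3 and 2 of the 6 fits leaving out a library (adjusted p up to 0.132, 0.122 and 0.187). FCMR was not called without the block either (adjusted p = 0.107). Of the 5 Fc receptor calls only 1 held in all 6 fits, and without GS716054 replicate 3 the count was 1.

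Of 18 surface proteins that are targets of antibodies or cell therapies, 6 rose and 2 fell, and 4 and 0 without the block. CD52, the target of alemtuzumab, read 250, 381 and 216 CPM in DMSO and 601, 669 and 730 CPM in GS716054 (log2 change 1.27, SE 0.16, adjusted p = 0.000631). MS4A1, which encodes CD20, read 668, 693 and 620 CPM in DMSO and 1151, 918 and 1302 CPM in GS716054 (log2 change 0.75, SE 0.15, adjusted p = 0.0102), without overlap, and 3 of the 6 fits leaving out a library lost the call (adjusted p up to 0.0591).

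Among 26 B-cell transcription factors 7 rose and 2 fell (11 and 3 without both libraries numbered 2). ID3, an inhibitor of E proteins, read 100, 79.6 and 114 CPM in DMSO and 210, 126 and 227 CPM in GS716054 (log2 change 0.92, SE 0.15, adjusted p = 0.00269), and ETS1 rose by 0.70. SPIB and BCL6, germinal centre and mature B-cell factors, rose by 1.06 and 1.58, but each lost its call in at least 1 fit (SPIB without GS716054 replicate 1 or 3, adjusted p up to 0.0884, and BCL6 up to 0.0707, and 0.0824 without the block). The members that fell, IRF4 and XBP1, drive plasma cell differentiation. IRF4 read 533, 1002 and 530 CPM in DMSO and 405, 510 and 345 CPM in GS716054 (log2 change -0.67, SE 0.15, adjusted p = 0.0153), a call lost without GS716054 replicate 3 (adjusted p = 0.0643) and without the block (0.118). XBP1 lost its call without GS716054 replicate 1 or 3 (adjusted p = 0.063 and 0.0577) and without the block (0.0957). Of 20 plasma cell and secretory genes, 6 fell and none rose (median -0.36; 9 and 0 at an unadjusted p under 0.05, and 7 and 0 by DESeq2), and only 2 fell without GS716054 replicate 1 or without the block, against 8 lower and 2 higher without both libraries numbered 2. The list shares XBP1, IRF4, CD38 and TNFRSF17 with the lists above. FKBP11, a chaperone of the secretory pathway, fell in every fit that left out 1 library (17.1, 18.5 and 13.8 against 6.58, 7.57 and 8.35 CPM, log2 change -1.12, SE 0.17, adjusted p = 0.00219). Of 23 genes of the unfolded protein response 2 fell (8.7%, beside 10.2% of all genes), EDEM1 and ERN1, which clear or sense misfolded protein. ERN1 was called in 3 of the 6 fits leaving out a library (adjusted p up to 0.0669) and not without the block (0.0713). In this list 4 members rose and 2 fell without both libraries numbered 2, when 23.7% of all genes were called. Without the block 1 fell, when 5.56% of all genes were called.

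**Figure D4:**
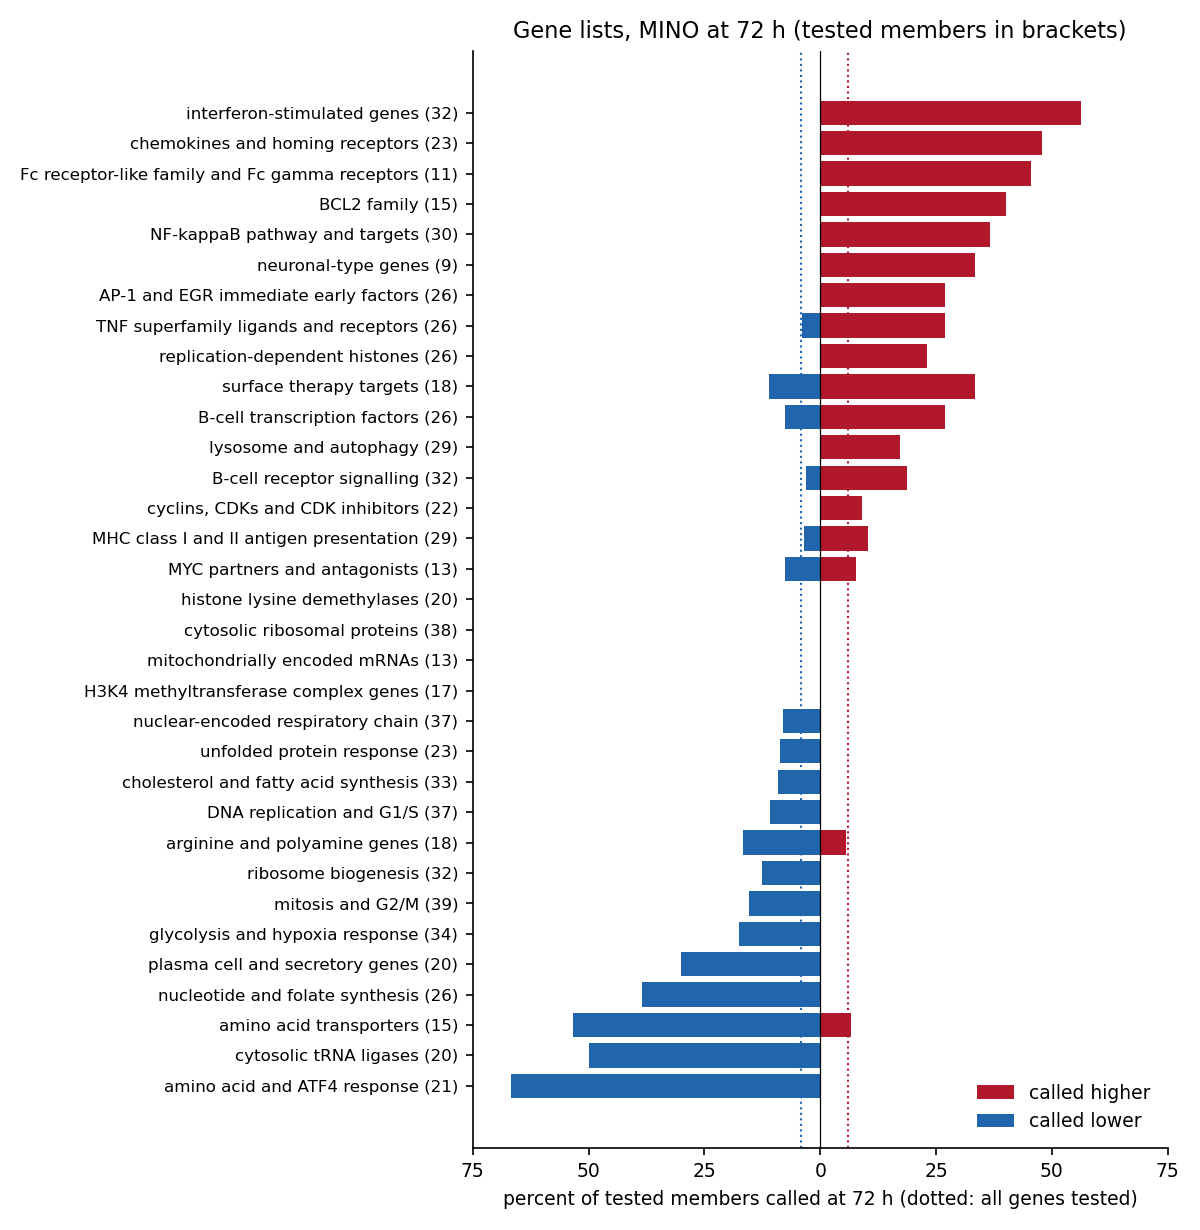
Percent of the tested members of each gene list called higher (red, to the right) or lower (blue, to the left) at 72 h, with the number tested in brackets and dotted lines at 5.96% and 4.26%, the shares of all genes. The amino acid lists extend farthest to the left and the interferon-stimulated genes farthest to the right, while the lists of ribosomal proteins, mitochondrial mRNAs, histone demethylases and mostly H3K4 methyltransferase complex genes have no bar.

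In the BCL2 family, which sets the threshold for apoptosis, 6 of 15 genes rose and none fell (median 0.40; 9 higher and 1 lower at an unadjusted p under 0.05, 6 and 0 by DESeq2, and 3 and 0 without the block). Of the 6, 4 promote cell death (HRK, BIK, BBC3 and BMF) and 2 oppose it (MCL1 and BCL2A1). HRK read 3.59, 3.52 and 2.18 CPM in DMSO and 9.55, 20 and 7.49 CPM in GS716054 (log2 change 1.89, SE 0.28, adjusted p = 0.00193). BIK read 2.44, 2.44 and 2.6 CPM in DMSO and 7.46, 6.26 and 11.4 CPM in GS716054 (log2 change 1.73, SE 0.26, adjusted p = 0.00196). MCL1 read 237, 210 and 234 CPM in DMSO and 397, 431 and 368 CPM in GS716054 (log2 change 0.81, SE 0.13). All 3 were separate between treatments. BCL2A1 and BMF lost their calls without the block (adjusted p = 0.13 and 0.122) and with 1 library left out (adjusted p up to 0.0771 and 0.181), and BBC3 lost its call without the block (adjusted p = 0.164).

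Genes of DNA replication and mitosis had median log2 changes below 0 with few calls. Of 37 genes of DNA replication 4 fell and none rose (10.8%, beside 10.2% of all genes). Their median was -0.35, with 13 lower and 0 higher at an unadjusted p under 0.05, and 6 and 0 by DESeq2. Of 39 mitotic genes 6 fell and none rose (15.4%). Their median was -0.45, with 21 and 0 at an unadjusted p under 0.05, and 10 and 0 by DESeq2. Without the block no member of either list was called. The median levels of the lists overlapped between treatments: for mitotic genes the median log2 CPM was 6.32 in GS716054 replicate 1 and 6.17 to 6.26 in DMSO, and for DNA replication genes 5.87 in GS716054 replicate 1 and 5.50 in DMSO replicate 2. CDT1, which licenses replication origins, read 72, 74.2 and 91 CPM in DMSO and 52.7, 29.6 and 55.1 CPM in GS716054 (log2 change -0.83, SE 0.15, adjusted p = 0.00466, and 0.0664 without the block). POLA1, the catalytic subunit of the replicative primase-polymerase, had a log2 change of -0.65 (adjusted p = 0.0061, and 0.163 without the block). ORC1 and POLD1, also called lower, were each called in 2 of the 6 fits leaving out a library (adjusted p up to 0.0786 and 0.139). The mitotic calls were BUB1, KIF2C, TOP2A, CENPE, ASPM and PTTG1, and none of the 6 held in every fit that left out a library. GS716054 replicate 2 was lowest in both lists. Without both libraries numbered 2 the medians were -0.18 for each, with 7 and 11 members lower, when 11.6% of all genes were called lower. Among 22 cyclins, CDKs and CDK inhibitors, 2 rose (CCND3 and CDKN2B) and none fell (9.09%, beside 10.2% of all genes; 5 and 0 at an unadjusted p under 0.05, and 3 and 0 by DESeq2), with 6 and 0 without both libraries numbered 2 and 1 and 0 without the block. CDKN2B was called in 1 of the 6 fits leaving out a library (adjusted p up to 0.177) and not without the block (0.235). CCND3 read 23.4, 21.6 and 24.6 CPM in DMSO and 28.8, 38.4 and 46 CPM in GS716054 (log2 change 0.70, SE 0.16, adjusted p = 0.0169), and 4 of the 6 fits leaving out a library lost the call (adjusted p up to 0.0909).

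Of 34 genes of glycolysis and the hypoxia response 6 fell and none rose (median -0.45; 10 lower and 1 higher at an unadjusted p under 0.05, and 8 and 0 by DESeq2), against the large offset of replicate 2 already described. The numbers were 18 lower and 1 higher without both libraries numbered 2, and 1 and 0 without the block. Of the 6 lower calls, 3 held in all 6 fits leaving out a library. PFKM, a phosphofructokinase, read 63.7, 77 and 69.6 CPM in DMSO and 23.4, 32.8 and 24.3 CPM in GS716054 (log2 change -1.39, SE 0.13, adjusted p = 0.000133), without overlap and with little offset of replicate 2. VEGFA, the angiogenic growth factor, read 115, 457 and 123 CPM in DMSO and 55.1, 254 and 12.4 CPM in GS716054 (log2 change -1.65, SE 0.35, adjusted p = 0.0118). ADM, which encodes adrenomedullin, read 19.8, 147 and 19.6 CPM in DMSO and 10.8, 54.4 and 9.55 CPM in GS716054 (log2 change -1.14, SE 0.17, adjusted p = 0.00187). Both were lower in GS716054 within each replicate number but overlapped across them, and neither was called without the block (adjusted p = 0.584 and 0.465). Without both libraries numbered 2, VEGFA had a log2 change of -2.04 and ADM of -0.98, both called. BNIP3 had a log2 change of -1.19 and was called in 3 of the 6 fits leaving out a library (adjusted p up to 0.087). It was not called without the block (adjusted p = 0.39). Of 37 nuclear genes of the respiratory chain 3 fell, NDUFS7, NDUFV1 and SDHA (8.11%, beside 10.2% of all genes). Without both libraries numbered 2, 6 of them fell and 3 rose, when 23.7% of all genes were called. None of the 13 mitochondrial mRNAs was called by edgeR (3 higher and 1 lower at an unadjusted p under 0.05, and 1 higher by DESeq2), and 4 were higher and 1 lower without both libraries numbered 2. SDHA, the catalytic subunit of complex II, read 188, 255 and 200 CPM in DMSO and 117, 136 and 126 CPM in GS716054 (log2 change -0.76, SE 0.15, adjusted p = 0.00932). The mitochondrial share of gene reads was 6.34%, 3.62% and 3.58% in DMSO and 6.25%, 4.61% and 6.15% in GS716054, so the treatments overlapped.

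Of 33 genes of cholesterol and fatty acid synthesis 3 fell (SCD, ACACA and FADS1) and none rose (9.09%, beside 10.2% of all genes; 11 lower and 1 higher at an unadjusted p under 0.05, and 6 and 0 by DESeq2). In this list 10 fell without both libraries numbered 2, and 1 without the block. ACACA and FADS1 were each called in 2 of the 6 fits leaving out a library (adjusted p up to 0.178 and 0.126) and not without the block (0.104 and 0.069). SCD, which desaturates fatty acids, read 340, 603 and 359 CPM in DMSO and 243, 252 and 216 CPM in GS716054 (log2 change -0.84, SE 0.16, adjusted p = 0.00659). Of 26 AP-1, EGR and DUSP genes of the immediate early response 7 rose and none fell (9 higher and 1 lower at an unadjusted p under 0.05, and 7 and 0 by DESeq2), with 13 and 1 without both libraries numbered 2 and 4 and 0 without the block. DUSP5 and DUSP6, phosphatases that switch off ERK, had log2 changes of 1.64 and 1.43 (SE 0.18 and 0.23, adjusted p = 0.000228 and 0.00303). DUSP5 read 15.1, 20.1 and 16.7 CPM in DMSO and 61.5, 56.5 and 43.5 CPM in GS716054, and 28.6% of the exon bases of DUSP6 overlap a gene on the opposite strand. EGR1 and EGR2 rose by 1.24 each, and both lost their calls in 4 of the 6 fits (adjusted p up to 0.175 and 0.0803).

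Of 29 lysosomal genes 5 rose and none fell (10 and 0 at an unadjusted p under 0.05, and 5 and 0 by DESeq2), with 13 and 0 without both libraries numbered 2 and 2 and 0 without the block. Only CTSA, a lysosomal carboxypeptidase, was called in each fit that left out 1 library (49, 36.8 and 55.5 against 79, 82.2 and 107 CPM, log2 change 0.93, SE 0.13, adjusted p = 0.00118). Of 26 replication-dependent histone genes that passed the filter 6 rose and none fell (7 higher and 2 lower at an unadjusted p under 0.05, 6 and 0 by DESeq2, and 2 and 0 without the block). H2BC12 read 2.58, 2.35 and 3.69 CPM in DMSO and 7.9, 45 and 8.61 CPM in GS716054 (log2 change 2.56, SE 0.54, adjusted p = 0.0112), and 1.39 without both libraries numbered 2. H2AC6 and H2BC5 reached 171 and 126 CPM in GS716054 replicate 2 against 13.5 to 17.4 and 5.6 to 12 CPM in the other GS716054 libraries, and both lost their calls in 3 of the 6 fits leaving out a library (adjusted p up to 0.113 and 0.143) and without the block (0.162 and 0.0598). Near-identical histone genes can share reads. Of 37 germline genes 6 passed the filter and none was called by edgeR (1 higher at an unadjusted p under 0.05, 0 by DESeq2, and 1 higher without both libraries numbered 2), and of 37 neuronal genes 9 passed and 3 rose (CKB, GLRA3 and SYT11). SYT11 was called in 2 of the 6 fits leaving out a library (adjusted p up to 0.0873) and not without the block (0.0569). CKB, the brain creatine kinase, read 6.1, 12.4 and 5.99 CPM in DMSO and 26.8, 40.1 and 25.7 CPM in GS716054 (log2 change 1.96, SE 0.24, adjusted p = 0.000535). Neither of the 2 metallothioneins that passed the filter was called (0 at an unadjusted p under 0.05, 0 by DESeq2, and 1 higher without both libraries numbered 2).

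Several of the largest changes lay outside these lists. SCIMP, a transmembrane adaptor of MHC class II signalling, read 1.79, 2.15 and 2 CPM in DMSO and 19.9, 25.9 and 30.4 CPM in GS716054 (log2 change 3.69, SE 0.29, adjusted p = 2.41e-05). CRIP2, a LIM domain protein, read 15.3, 59.4 and 16.9 CPM in DMSO and 195, 295 and 158 CPM in GS716054 (log2 change 3.10, SE 0.23, adjusted p = 2.41e-05). NCR3, an activating receptor best known from NK cells, read 3.09, 4.89 and 2.84 CPM in DMSO and 18.1, 47.5 and 19.4 CPM in GS716054 (log2 change 2.90, SE 0.26, adjusted p = 7.97e-05). Each of these 3 genes was higher in every GS716054 library than in any DMSO library. FAM177B, CSPG4, NPTXR and AKAP5 rose by 2.66, 2.55, 2.50 and 2.32, without overlap. Among the largest decreases, BEST3, which encodes a bestrophin, read 29.6, 26.4 and 30.8 CPM in DMSO and 5.82, 2.14 and 9.9 CPM in GS716054 (log2 change -2.40, SE 0.28, adjusted p = 0.000364). GPM6A, a neuronal membrane glycoprotein, read 47.2, 50.3 and 45.9 CPM in DMSO and 13.8, 9.22 and 14.2 CPM in GS716054 (log2 change -1.95, SE 0.17, adjusted p = 7.53e-05), and PDZD2 and FRY had log2 changes of -1.80 and -1.54. SLC2A5, the fructose transporter, had a log2 change of -2.63 and lost its call without GS716054 replicate 3 (adjusted p = 0.0558). DOCK3 (-1.72) and ZNF692 (-1.52) were each called in 2 of the 6 fits.

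The late response was compared with the early one in the same fit. At the earlier time the calls numbered 994 (6.61%): 561 increases (3.73%) and 433 decreases (2.88%). Of these, 525 were called at 72 h in the same direction and 3 in the opposite direction. The test of the difference itself called 6 genes (0.0399%, with 1097 at an unadjusted p under 0.05), 5 with a lower (0.0333%) and 1 with a higher effect at 72 h (0.00665%). For ASS1 the effect differed by -2.96 (SE 0.29, adjusted p = 0.00316): it read 14.5, 18.7 and 11.5 CPM in DMSO and 9.4, 7.68 and 7.43 CPM in GS716054 at 24 h, so that the DMSO level was higher at 72 h than at 24 h while the GS716054 level stayed under 20 CPM at both. INHBE showed the same arrangement, with 2.94, 2.84 and 2.35 CPM in DMSO and 2.27, 2.34 and 1.71 CPM in GS716054 at 24 h (difference of effects -3.65, SE 0.44, adjusted p = 0.00808). COL18A1, a basement membrane collagen, rose at 72 h and had a log2 change of -0.68 at 24 h that was not called (72 h levels 5.17, 8.12 and 5.08 against 25.7, 43.1 and 14.3 CPM, difference 2.77, SE 0.33, adjusted p = 0.00808). ENPP2, which makes lysophosphatidic acid, rose at 24 h (log2 change 0.79) and fell at 72 h (-0.71, not called without the block, adjusted p = 0.126), with a difference of -1.50 (SE 0.18, adjusted p = 0.00808). FRY differed by -1.70 (adjusted p = 0.044). Without the block ASS1 and INHBE were still called, and COL18A1, ENPP2 and FRY were not (adjusted p = 0.337, 0.623 and 0.316). With 1 library left out, FRY lost its call without replicate 1 or 3 of either treatment (adjusted p up to 0.22), and ENPP2 without GS716054 replicate 1 (0.0525). With the block nested in time 102 genes were called (0.679%), 28 with a higher (0.186%) and 74 with a lower effect (0.492%), and without both libraries numbered 2 the number was 640.

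The 72 h response of MINO was then compared with that of the other lines, each against its own DMSO libraries, in a fit over all 36 libraries and 17980 genes. JEKO had 215 genes called at 72 h (1.2%), 123 higher (0.684%) and 92 lower (0.512%), and UPN-1 had 125 (0.695%), 104 higher (0.578%) and 21 lower (0.117%). In this fit MINO had 2249 genes called at 72 h, 1265 higher and 984 lower. Log2 changes, medians and list counts of MINO alone given below are still from the fit over the 12 MINO libraries. The difference between MINO and JEKO was called for 605 genes (3.36%), 368 with a higher (2.05%) and 237 with a lower effect in MINO (1.32%), and between MINO and UPN-1 for 382 genes (2.12%), 223 with a higher (1.24%) and 159 with a lower one (0.884%). Without the block these counts were 197 and 140. With 1 MINO library left out they ranged from 318 (without DMSO replicate 1) to 731 (without DMSO replicate 2) and from 184 to 546 (the same libraries). Both comparisons share the MINO libraries.

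Interferon-stimulated genes differed between MINO and JEKO. In MINO 18 of 32 rose, whereas in JEKO 3 fell and the median was -0.82, and in UPN-1 the median was -0.23. The difference was called as higher in MINO for 19 members against JEKO and for 6 against UPN-1. For EPSTI1 the effect in MINO was higher than in JEKO by 4.99 (adjusted p = 9.83e-05) and than in UPN-1 by 4.17 (adjusted p = 0.00248). For LGALS3BP the differences were 1.48 and 1.59 (adjusted p = 0.00665 and 0.00433). These held in each fit that left out 1 MINO library.

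Genes of the amino acid response fell by more in MINO. The median of the list was -0.37 in JEKO and -0.26 in UPN-1, and the difference was called as lower in MINO for 6 members against JEKO and 5 against UPN-1. For INHBE the differences were -3.70 and -3.50 (adjusted p = 0.00101 and 0.00822), and for CBS -2.52 and -3.16 (adjusted p = 0.00171 and 0.000259). ASS1 differed by -2.65 and -3.28 (adjusted p = 0.0134 and 0.00377), the first of which was not called without the block (adjusted p = 0.0735), and neither was the INHBE difference from UPN-1 (0.078). MYC fell in MINO and had log2 changes of 0.14 in JEKO and 0.26 in UPN-1, with differences of -1.82 and -1.94 (adjusted p = 1.49e-06 and 9.95e-07). PFKM also differed from both lines, by -1.36 and -1.31 (adjusted p = 7.22e-06 and 3.41e-05).

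NF-kappaB targets had a median of -0.19 in JEKO, where 2 members fell, and of -0.07 in UPN-1, and the effect was higher in MINO for 6 members against JEKO and 4 against UPN-1. LTB differed by 4.10 from JEKO and 3.49 from UPN-1 (adjusted p = 0.0008 and 0.00014), SCIMP by 4.18 and 2.82 (adjusted p = 1.94e-06 and 0.0106), and HRK by 2.46 and 2.28 (adjusted p = 9.29e-05 and 0.000346, the second not called without the block, 0.0727). CXCR3 and CCL22, with large increases in MINO, gave no called difference, but the estimates were large and imprecise. For CXCR3 they were 3.15 from JEKO and 6.22 from UPN-1 (SE 2.9 and 2.2, adjusted p = 0.654 and 0.163). For CCL22 the difference from JEKO was 2.62 (SE 1.06, adjusted p = 0.199), and that from UPN-1 (3.93) had no usable SE. The missing calls do not show that the lines respond alike. In the fit over all 36 libraries, 12 genes were higher and 4 lower in all 3 lines. They include LCK, a SRC family kinase of lymphocytes, with log2 changes of 1.39 in MINO, 1.83 in JEKO and 1.04 in UPN-1, MXD4 with 1.36, 0.70 and 0.57, and CCDC69 with -1.07, -0.84 and -0.70. The MINO values among these are from the fit over the 12 MINO libraries. MXD4 was nevertheless raised by more in MINO than in JEKO (difference 0.68, adjusted p = 0.0349) and UPN-1 (0.81, adjusted p = 0.0176), but neither difference was called in every fit that left out 1 library (adjusted p up to 0.105 and 0.0534) or without the block (adjusted p = 0.119 and 0.0761).

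**Figure D5:**
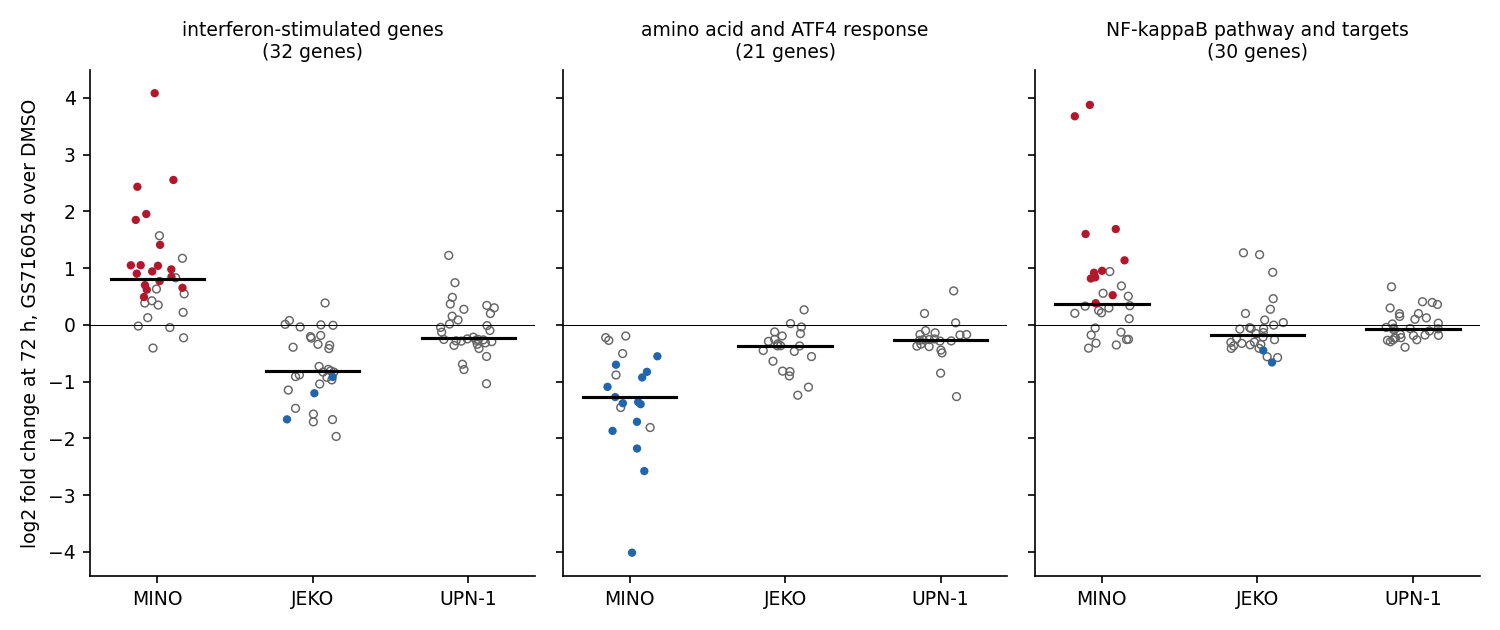
Log2 fold change at 72 h of the tested members of 3 gene lists in MINO, JEKO and UPN-1, with 1 point per gene, filled where called (red higher, blue lower), and a bar at the median. MINO values are from the fit over the 12 MINO libraries, and the others from the fit over all 36. The interferon-stimulated genes lie mostly above 0 in MINO (median 0.80) and below 0 in JEKO (median -0.82), and the amino acid response genes are lowest in MINO (median -1.27).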

How the data were processed

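RNA of 3 mantle cell lymphoma lines was sequenced after DMSO or GS716054. The authors deposited raw counts of reads per Ensembl gene for each library. HISAT2 2.2.1, HTSeq 0.13.5 and GRCh38 are listed per the submitters' processing notes; the annotation release and strand setting are not given in the sources used here, so overlapping genes on opposite strands may share reads. Lines that name no gene (43.4% to 44.3% of reads in no feature) stayed out. Symbols came from GENCODE for 57532 of 58302 identifiers.

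Genes were filtered with filterByExpr (minimum count 10, total 15) and tested with edgeR 4.0.16 (R 4.3.3): TMM scaling, a quasi-likelihood fit over the 12 MINO libraries with 4 groups and the replicate number as an additive block, and Benjamini-Hochberg adjustment. The replicate number was a block because the plan for this comparison asked for it. Same-numbered DMSO and GS716054 libraries at 72 h deviated together (r 0.59, 0.63 and 0.38 over 12711 genes). The labels do not state a pairing, and differently numbered pairs of replicates 1 and 3 also deviated together (0.44 and 0.30), so these values do not establish pairs. Between 24 and 72 h, same-numbered DMSO libraries did not deviate together (0.01, -0.02 and 0.08), while same-numbered GS716054 libraries did (0.14, 0.40 and 0.33). Differently numbered GS716054 replicates 1 and 3 of the 2 times gave 0.12 and 0.13. Differences between lines came from all 36 libraries. Alternatives were no block, a block nested in time, DESeq2 1.42.0, other filters and left-out libraries. On simulated data for the 72 h comparison (14705 genes), changes of log2 1 and -1 were recovered for 76% and 82% of 50 genes each, and changes of 2 and -2 for 100%. Of 187 calls, 8 were false. The simulation gave each gene the same replicate shift in all 4 groups, as the block assumes, and changed only genes above a minimum DMSO level. It held no shift of replicate 2 confined to 72 h, so these rates need not hold for the data. Within each MINO treatment at 72 h, no library pair differed by as little as sampling noise (chi-square per gene 8.64 to 86.5). Other pairs were not checked.

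Genes are named by rule: KDM5 genes and MYC; the 12 largest increases and 12 largest decreases among called protein-coding genes that are no immunoglobulin genes, have a mean log2 CPM of 2 or more and do not overlap between treatments; up to 4 called members per list (mean log2 CPM of 1 or more), plus those a count of 5 or fewer needs; and up to 4 genes per test of a difference. Where such a gene is given with values and lost its call with 1 library left out, that is stated beside it. The members, lists and rules were chosen with earlier results of these data known. Results for some genes are not reported here.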

Additional observations from a re-analysis of the deposited data

Results flagged for a closer look

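The results given here were singled out because the effect of GS716054 differed between times or between lines by a test of the difference itself, with edgeR's quasi-likelihood test and adjusted p-values over all genes. No explanation was tested.

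Between 72 and 24 h in MINO, the log2 effect differed by -2.96 for ASS1 (adjusted p = 0.00316) and by -3.65 for INHBE (adjusted p = 0.00808), and both calls held without any 1 of the 6 libraries and without the block.

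At 72 h against JEKO, SCIMP (4.18), CNR2 (2.22), FAM177B (2.05), CRIP2 (1.75), NPTXR (1.31) and the antiviral GTPase gene MX1 (2.73) had a higher effect in MINO. FRY (-1.82), SLC2A5 (-2.93), SLC6A9 (-1.81), GPM6A (-1.41) and ENPP2 (-1.45) had a lower one. SCIMP, CNR2, FAM177B, FRY, SLC2A5, GPM6A and ENPP2 were called whichever library was left out. CRIP2 and NPTXR lost the call without replicate 1 or 3 of either treatment (adjusted p up to 0.0912 and 0.174). SLC6A9 lost it without DMSO replicate 1 or 3 or GS716054 replicate 2 or 3 (adjusted p up to 0.0734), and MX1 without replicate 1 of either treatment (adjusted p up to 0.0726). Without the block, CRIP2, NPTXR, SLC6A9, MX1 and GPM6A were not called (adjusted p = 0.474, 0.0965, 0.199, 0.119 and 0.0645).

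At 72 h against UPN-1, LTB (3.49), H2BC12 (2.73), AKAP5 (2.03) and COL18A1 (2.08) had a higher effect in MINO, and MYC (-1.94), RNF157 (-2.90), BEST3 (-1.75) and PHGDH (-1.51) a lower one. All 8 were called whichever library was left out. Without the block AKAP5, COL18A1, BEST3 and PHGDH were not called (adjusted p = 0.0598, 0.0701, 0.156 and 0.109). Reads of H2BC12 can be shared with near-identical histone genes, and 27.8% of the exon bases of RNF157 overlap a gene on the opposite strand.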

How the results depend on the processing

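Depth limits genes near 3 reads, 0.2 to 0.341 CPM, and 3 libraries per treatment limit the precision of all results. The 72 h count of 1536 was 835 without the replicate block, 3029 with the block nested in time, 2350 without the filter on low counts and 3607 without both libraries numbered 2. It ranged from 693 to 1876 with 1 library left out. The 6 genes whose effect differed between 72 and 24 h became 2 without the block, 102 with the nested block, 67 by DESeq2, 185 without the filter, 640 without both libraries numbered 2, and 3 to 13 with 1 library left out. The difference from JEKO (605) was 197 without the block and 318 to 731 with 1 library left out. The difference from UPN-1 (382) was 140 without the block, 731 without the filter and 184 to 546 with 1 library left out. The cause was not tested.

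KDM5A and KDM5B, near 0 and not called, changed sign. KDM5A had a log2 change of -0.002 with the nested block, -0.007 with DESeq2's size factors, by DESeq2 and without the filter, -0.004 in the fit of the 6 libraries alone, -0.053 without both libraries numbered 2, and -0.174 to 0.096 with 1 library left out. KDM5B had -0.009 without the block and -0.217 to 0.36 with 1 library left out. Of 122 named results, 43 lost their call without the replicate block and 10 to 41 with 1 library left out. The other results kept their direction in all alternatives run.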
